A study of Mus musculus with 19 samples.

Results

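The mRNA levels of 10 genes of the circadian clock were followed in mouse blood leukocytes after CAWS administration. These genes are Arntl, Clock, Per1, Per2, Per3, Cry1, Nr1d1, Nr1d2, Dbp and Tef, taken as every non-control probe that carries such a gene name in the scanner output, which gave 20 of the 41174 probes and 10 of the 27745 gene names on the array. CAWS is the water-soluble fraction of Candida albicans, and its intraperitoneal injection induces vasculitis in DBA/2 mice. Male DBA/2 and B6 mice, all of them treated with CAWS, were compared at 0 w, right after the last injection, and at 4 later times (2 w, 4 w, 8 w, 9 w), which gave 10 groups. There were 10 DBA/2 samples, 2 per week, and 8 B6 samples, with 2 at 0 w, 4 w and 8 w and 1 at 2 w and 9 w. The later groups came from mice that had survived to that week, no age was given per group, and no group without CAWS was among these samples. The question addressed here was whether the clock genes hinted at different hours of blood collection, an hour that neither the labels nor the methods give.

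The molecular clock is a feedback loop that runs in nearly every cell. The activators ARNTL (also called BMAL1) and CLOCK bind E-box sequences and switch on the Per and Cry genes, whose proteins return to repress their own activators. NR1D1 and NR1D2 (REV-ERBα and REV-ERBβ) are nuclear receptors that repress Arntl, and DBP and TEF are transcription factors that carry the rhythm to output genes through D-box sequences. In most tissues Arntl peaks out of phase with Dbp and Nr1d1, so that samples taken at different hours would differ in opposite directions. Blood leukocytes have such a clock, and Per1 also responds directly to glucocorticoids and other acute signals.

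The motifs through which the loop runs were searched for in the promoters of these genes. RefSeq promoter windows (GRCm38.p6, spanning each transcription start) were given for 9 of the 10 genes, in 14 windows of 300 bases, and both strands were read. Matches were found in Per1, Cry1, Nr1d1, Tef, Per3 and Arntl, and their surroundings are shown because these are the letters that the loop's factors are known to bind. No motif was found in the windows of Dbp, Nr1d2 and Clock. Each run below reads 5′ to 3′ along the gene, with the motif in capitals.
Per1 E-box, chr11:69098774-69098797, plus strand: acccaagtcCACGTGcagggatgt
Cry1 E-box, chr10:85185100-85185123, minus strand: gccggtggtCACGTGgggtgcatg
Tef E-box, first window, chr15:81802537-81802560, plus strand: ctgtggctcCACGTGctgcagctg
Tef E-box, second window, chr15:81811267-81811290, plus strand: ctggcccagCACGTGtctacatcg
Cry1 E′-box, chr10:85185119-85185142, minus strand: cacttcagaAACGTGaggtgccgg
Nr1d1 E′-box, chr11:98775391-98775414, minus strand: acagatctcAACGTGccggctgct
Per3 D-box, chr4:151044855-151044878, minus strand: cccgcgcgTTATGTAAggtactcg
Per3 D-box, chr4:151044808-151044831, minus strand: gcccgcggTTATGTAAcccccgcc
Arntl ROR/REV-ERB core, chr7:113207533-113207556, plus strand: gcagaaagTAGGTCAgggacggag

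The E-box (CACGTG) was in the windows of 3 genes and in 7.15% of all 32851 promoter windows. The E′-box (CACGTT, read as AACGTG on the other strand) was in 2 genes and in 4.68% of all windows. The D-box (TTATGTAA or TTACGTAA) was in 1 gene and in 1.06% of all windows, and the core shared by ROR and REV-ERB receptors (TAGGTCA) was in 1 gene and in 2.61%. The cyclic AMP response element (TGACGTCA), which was in 1.79% of all windows, was in none of the 14. A match is a description of the letters in these windows, not a bound site.

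The samples differed in several ways that bear on the clock genes. Probes of 9 hepatocyte markers, genes that leukocytes barely transcribe, summed to a normalized log2 level of 5.21 to 5.25 at B6 0 w and 4.42 to 4.50 at B6 8 w, against -2.18 to -0.61 in the other 14 samples. For the genes called in B6, the test among 2 w, 4 w and 9 w alone is therefore given too. Replicates of a group differed by a median of 0.0964 to 0.151 on the log2 scale over probes detected on every array, and the 2 arrays of a single RNA (B6 0 w replicate 2, averaged as 1 sample) by 0.0985. The p-values thus measure only the spread between these samples, which may be technical. Leukocyte markers were well above background throughout, with all 5 B cell markers and at least 6 of 7 T cell markers in every sample.

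Clock mRNAs were dim. Each gene is described by its main probe, the probe with the highest mean level, and levels are log2 signals relative to the 75th percentile of each array. Main probes for Arntl (mm8 chr7:113104645-113104704), Per1 (chr11:68925571-68925630), Nr1d1 (chr11:98588628-98588687), Nr1d2 (chr14:16997805-16997864) and Dbp (chr7:45577937-45577996) were well above background in all 18 samples. Those for Clock (chr5:77287127-77287186), Per2 (chr1:93270367-93270426) and Tef (chr15:81653753-81653812) passed in 17 of 18, and that for Per3 (chr4:149848947-149849006) in 4. Cry1 (chr10:84561785-84561844) was not well above background in any sample on either of its probes and was not tested, so that its signal sets only an upper bound on this repressor. In processed signal units Dbp spanned 133 to 467, Nr1d1 95.7 to 227, Per1 32.1 to 85.2, Arntl 26.5 to 68.9, Nr1d2 23.8 to 58.7 and Clock 14.5 to 49.0. These spans belong to different probes and give no order of mRNA abundance between genes.

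**Figure D1:**
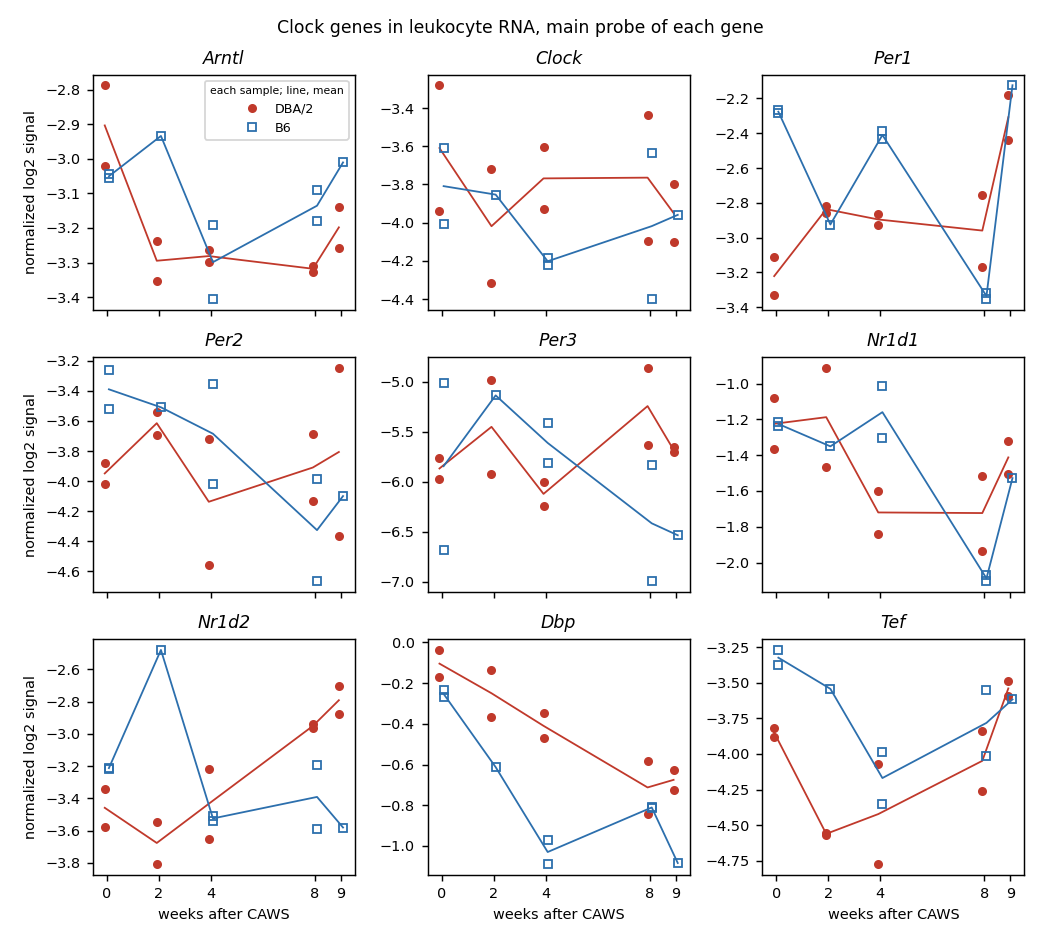
Normalized log2 signal (y axis) of the main probe of each of the 9 tested clock genes against weeks after CAWS (x axis). Filled circles are DBA/2 samples, open squares are B6 samples, and lines join the group means. Arntl and Dbp start highest in DBA/2 at 0 w, Per1 rises there at 9 w, and Per1 and Nr1d1 are lowest in B6 at 8 w.

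Over the 5 weeks, 5 of the 9 tested clock genes changed in DBA/2 mice, where 34.4% of all tested probes did (limma F test, adjusted p under 0.05). They were Per1 (adjusted p = 0.00689), Dbp (0.00871), Nr1d2 (0.0126), Tef (0.0388) and Arntl (0.048). In B6 mice 4 of 9 changed, against 35.2% of probes: Per1 (adjusted p = 0.00094), Dbp (0.00311), Nr1d2 (0.0227) and Nr1d1 (0.0323). Among the B6 weeks with little hepatocyte RNA (2 w, 4 w and 9 w), a comparison chosen after seeing the data, 2 of 9 differed, against 19.6% of probes: Nr1d2 (adjusted p = 0.0147) and Per1 (0.0423). In that comparison 2 w and 9 w had 1 sample each. With 9 genes, such counts of calls beside shares of this size are no result about clock genes as a class. In bulk leukocyte RNA, fewer cells of a type and less RNA per cell cannot be told apart. The group means of the tested clock genes spanned a median of 0.61 on the log2 scale in DBA/2 and 0.93 in B6, against 0.72 and 0.86 over all tested probes and 0.58 and 0.65 over probes well above background in all samples, as 5 of the 9 are. Against 0 w, 7 gene-by-week differences passed in each strain (20.5% of probe-by-week differences in DBA/2, 14.8% in B6), and all differences within a strain share the same 0 w samples. The shares of probes that passed at the single later weeks, in order of time, were 15.7%, 14.8%, 24% and 27.7% in DBA/2 and 13%, 15.7%, 21.2% and 9.33% in B6. With normexp background correction no test over the weeks passed for a clock gene, and 9.53% of probes passed in DBA/2 and 5.16% in B6.

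**Figure D2:**
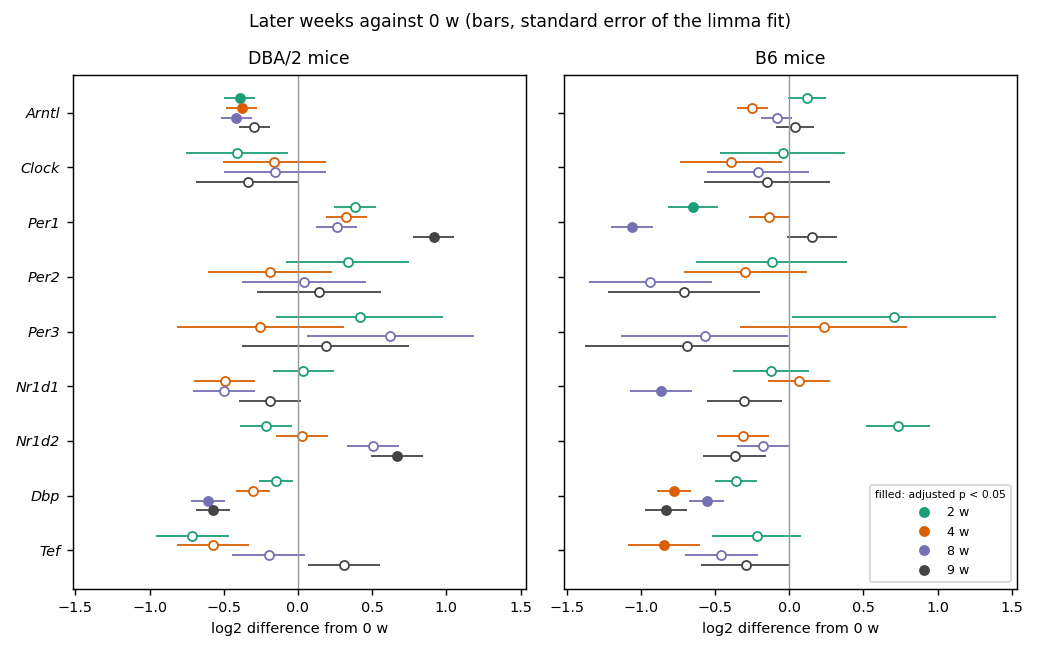
Log2 difference of each later week from 0 w (x axis) for the 9 tested clock genes, in DBA/2 (left) and B6 mice (right). Points are limma estimates coloured by week, bars are their standard errors, and filled points have an adjusted p under 0.05. In B6 at 8 w every point lies left of 0, while in DBA/2 at 9 w Per1 and Nr1d2 lie to the right and Dbp to the left.

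Arntl, the activator without which the clock stops, fell in DBA/2 mice after 0 w. Its normalized log2 level was -2.79 and -3.02 at 0 w, -3.24 and -3.35 at 2 w, -3.27 and -3.30 at 4 w, -3.31 and -3.33 at 8 w and -3.14 and -3.26 at 9 w. All 8 later samples lay below both 0 w samples, which held for Arntl alone among the tested clock genes and for 14.2% of all tested probes. The change was small: -0.39 at 2 w (SE 0.10, adjusted p = 0.0333), -0.38 at 4 w (0.0402) and -0.41 at 8 w (0.0179), that is 1.31-, 1.30- and 1.33-fold lower. The difference at 9 w was -0.29 (adjusted p = 0.0648). On the slide that held replicate 1 of these weeks the differences were -0.45, -0.48 and -0.52, and on the slide of replicate 2 they were -0.33, -0.28 and -0.31. The test over weeks rests on a narrow margin, since Arntl kept its call under 14 of 35 alternative settings (adjusted p = 0.0103 to 0.308). In B6 mice Arntl stood between -3.41 and -2.93 with no week that passed the test (adjusted p = 0.175 over the weeks). Its partner Clock ranged from -4.32 to -3.28 in DBA/2 and from -4.40 to -3.61 in B6. The replicates of Clock differed by as much as its weeks did, and no test passed (adjusted p = 0.842 in DBA/2).

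Per1, the repressor that is also switched on by acute signals, was the clock gene that moved most between groups among those detected in every sample. In DBA/2 mice it stood at -3.11 and -3.33 at 0 w, -2.82 and -2.86 at 2 w, -2.86 and -2.93 at 4 w, -2.75 and -3.17 at 8 w and -2.44 and -2.18 at 9 w. Both 9 w samples were above every other DBA/2 sample, a share not counted over all probes. Against 0 w alone, both 9 w samples lay above for 28.6% of all tested probes. The rise at 9 w was +0.91 (SE 0.14, adjusted p = 0.00117), or 1.88-fold, and it passed under all 35 alternative settings. The DBA/2 9 w samples shared no slide with the other DBA/2 samples, and week and slide cannot be told apart in this rise. Per1 in B6 mice took another course, at -2.28 and -2.27 at 0 w, -2.92 at 2 w, -2.39 and -2.43 at 4 w, -3.32 and -3.35 at 8 w and -2.12 at 9 w. It was thus low at 2 w and lowest at 8 w, and close to its 0 w level at 4 w and 9 w. The fall was -0.65 at 2 w (SE 0.17, adjusted p = 0.0348, from 1 sample) and -1.06 at 8 w (SE 0.14, adjusted p = 0.000599), the latter 2.08-fold. Before scaling, the mean Per1 signal was 55.9 units at B6 0 w and 54.3 at B6 8 w. At B6 8 w hepatocyte markers were high, as they were at B6 0 w, and their part in the fall was not tested. Among the B6 weeks without that signal, Per1 was higher at 9 w than at 2 w by +0.80 (adjusted p = 0.0274, where 12.1% of probes passed). This difference sets 1 sample against 1 sample, so that its p-value rests on the spread within other groups. The 2 samples were also on different slides, and week and slide cannot be told apart in it. Between 4 w and 2 w, where 15.6% of probes passed, Per1 did not pass (+0.51, adjusted p = 0.0737).

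Per2 and Per3, the other period genes, gave no call on their main probes. Per2 ranged from -4.56 to -3.24 in DBA/2 and from -4.67 to -3.26 in B6, and its adjusted p was 0.852 over the weeks in DBA/2. Its replicates lay as far apart as -4.37 and -3.24 at DBA/2 9 w. The lowest Per2 sample was B6 8 w replicate 1, and the difference of that week from 0 w was -0.94 (SE 0.42, adjusted p = 0.15). Per3 signals of 2.02 to 14.3 units lay mostly at background, and its adjusted p was 0.688 over the weeks in DBA/2. A second Per2 probe, well above background in 4 of 18 samples, was at least 1.14-fold higher at DBA/2 2 w than at 0 w (adjusted p = 0.037). It was also called at DBA/2 9 w against 0 w (adjusted p = 0.0409), where it was not well above background in any of the 4 samples, and between the strains at 4 w (adjusted p = 0.0373), where it was so in 1 of 2 DBA/2 and 0 of 2 B6 samples, and no fold is given for either. The main Per2 probe differed at DBA/2 2 w by +0.33 (adjusted p = 0.727), so that the probes of this gene did not give the same call.

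The nuclear receptors Nr1d1 and Nr1d2, which repress Arntl and usually cycle together, did not follow each other in DBA/2 mice. Nr1d2 stood there at -3.34 and -3.58 at 0 w, -3.55 and -3.81 at 2 w, -3.21 and -3.65 at 4 w, -2.94 and -2.96 at 8 w and -2.88 and -2.71 at 9 w. All 4 samples of 8 w and 9 w lay above the 6 earlier ones, a share not counted over all probes. Against 0 w alone, both samples of the week lay above for 21.6% of all tested probes at 8 w and for 28.6% at 9 w. The rise at 9 w was +0.67 (SE 0.17, adjusted p = 0.0191), or 1.59-fold, and that at 8 w was +0.51 (adjusted p = 0.064). The 9 w samples were on other slides than the 0 w samples. Nr1d1 stood at -1.37 and -1.08 at 0 w, -1.46 and -0.91 at 2 w, -1.84 and -1.60 at 4 w, -1.93 and -1.51 at 8 w and -1.50 and -1.32 at 9 w. Its differences from 0 w were -0.49 at 4 w and -0.50 at 8 w, and its course over the weeks did not pass (adjusted p = 0.144). That course stayed uncalled under 33 of 35 alternative settings, and passed with the slide (adjusted p = 0.0153) or the replicate number as a block. With the slide as a block 45.6% of all probes passed. In B6 mice Nr1d1 stood at -1.24 and -1.21 at 0 w, -1.35 at 2 w, -1.31 and -1.01 at 4 w, -2.07 and -2.11 at 8 w and -1.53 at 9 w. Only the fall at B6 8 w passed, at -0.86 (SE 0.21, adjusted p = 0.0166), or 1.82-fold, in the same samples in which Per1 was lowest and hepatocyte markers were high. Among B6 2 w, 4 w and 9 w Nr1d1 did not pass (adjusted p = 0.553). Nr1d2 in B6 mice was -3.22 and -3.21 at 0 w, -2.48 at 2 w, -3.51 and -3.54 at 4 w, -3.59 and -3.19 at 8 w and -3.58 at 9 w. The single 2 w sample stood above all others, by +0.73 against 0 w (adjusted p = 0.053), and the 4 w samples lay below it (log2 difference -1.05, adjusted p = 0.0101).

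A second probe for Nr1d1, well above background in 8 of 18 samples, was at least 1.28-fold lower at DBA/2 9 w than at 0 w (adjusted p = 0.0283). It was well above background in 1 of the 2 samples at 0 w and in 0 of 2 at 9 w. The main probe of Nr1d1 differed by -0.19 between these weeks and was not called. The second probe was also called for the difference between the strains' changes at 9 w (adjusted p = 0.0329), and the main probe was not.

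Dbp, the output factor that cycles with a high amplitude in most tissues, was the clock gene that fell in both strains. In DBA/2 mice its level was -0.17 and -0.04 at 0 w, -0.37 and -0.13 at 2 w, -0.47 and -0.35 at 4 w, -0.84 and -0.58 at 8 w and -0.63 and -0.72 at 9 w. Levels overlapped between adjacent weeks up to 4 w. All 4 samples of 8 w and 9 w lay below the 6 earlier ones, a share not counted over all probes. Against 0 w alone, both samples of the week lay below for 40.9% of all tested probes at 8 w and for 33.4% at 9 w. The fall was -0.61 at 8 w (SE 0.11, adjusted p = 0.00415) and -0.57 at 9 w (SE 0.11, adjusted p = 0.00529), or 1.52- and 1.49-fold. Here too the 9 w samples shared no slide with those of 0 w. In B6 mice Dbp was -0.24 and -0.27 at 0 w, -0.61 at 2 w, -0.97 and -1.09 at 4 w, -0.81 and -0.81 at 8 w and -1.08 at 9 w. Every later B6 sample lay below both 0 w samples. That also held for Tef in B6, and the share of all probes for which it held was not counted. The fall was -0.78 at 4 w (adjusted p = 0.0021), -0.56 at 8 w (0.00762) and -0.83 at 9 w (SE 0.14, adjusted p = 0.0058), or 1.71-, 1.47- and 1.78-fold. Within slides Dbp fell by 0.67 and 0.55 at DBA/2 8 w, and it fell by 0.74 and 0.77 at B6 4 w. Among B6 2 w, 4 w and 9 w alone Dbp did not pass (adjusted p = 0.0981). The hepatocyte markers were high in the 0 w samples of B6 and low in the 4 w samples, and their part in the fall of Dbp in that strain was not tested, while the DBA/2 samples had low hepatocyte levels at every week.

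Tef, a relative of Dbp that binds the same sites, did not fall with it in DBA/2 mice. It stood at -3.82 and -3.88 at 0 w, -4.55 and -4.57 at 2 w, -4.07 and -4.77 at 4 w, -4.26 and -3.84 at 8 w and -3.49 and -3.59 at 9 w. The 9 w samples were the highest and the 2 w samples were among the lowest of the strain. The share of all probes with such an order was not counted. Against 0 w alone, 28.6% of all tested probes had both 9 w samples above. No single week of DBA/2 passed against 0 w, the difference at 2 w being -0.71 (adjusted p = 0.0839) and that at 9 w +0.31 (adjusted p = 0.396). In B6 mice Tef was -3.38 and -3.27 at 0 w, -3.54 at 2 w, -4.35 and -3.98 at 4 w, -4.01 and -3.55 at 8 w and -3.62 at 9 w. The fall at 4 w was -0.85 (SE 0.24, adjusted p = 0.0445), a call that held under 17 of 34 alternative settings, while the DBA/2 call over the weeks held under 22 of 35. Hepatocyte markers were high at B6 0 w and low at B6 4 w, and their part in the fall of Tef was not tested. Among B6 2 w, 4 w and 9 w its adjusted p was 0.235.

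The course over the weeks differed between the strains for 2 of the 9 tested genes, against 33.4% of all tested probes. Nr1d2 (limma F test, adjusted p = 0.00469) had risen in DBA/2 at 9 w, where the B6 sample had not, with a difference between the strains' changes of +1.04 (adjusted p = 0.0398). At 2 w the difference of Nr1d2 ran the other way (-0.95, adjusted p = 0.0466). For Per1 (adjusted p = 0.00508) the change in DBA/2 exceeded that in B6 at 2 w, with a log2 difference of +1.03 (adjusted p = 0.0119), as well as at 8 w, where it was +1.32 (SE 0.20, adjusted p = 0.00188). At the later weeks, in order of time, 15.3%, 11.8%, 17.5% and 12.3% of all probes passed this comparison, and all of them share the 0 w samples. Taken week by week, 6 strain differences passed, against 25.5% of probe-by-week differences (32.7%, 23.9%, 32.1% and 13.3% at the weeks with such a call, 0 w, 2 w, 4 w and 9 w). At no week did the DBA/2 and B6 samples share a slide, so that strain and slide cannot be told apart in these differences. Per1 was lower in DBA/2 than in B6 at 0 w (log2 difference -0.95, adjusted p = 0.000699) and at 4 w (-0.49, adjusted p = 0.0245). Hepatocyte markers summed to a log2 level of 5.21 to 5.25 at B6 0 w, against -1.62 to -0.82 at DBA/2 0 w. B6 0 w is also the reference of the B6 changes above, and the part of hepatocyte RNA in these values was not tested. Nr1d2 was lower in DBA/2 at 2 w (-1.20, adjusted p = 0.00275) and higher at 9 w (+0.79, adjusted p = 0.0392). Tef was lower in DBA/2 at 2 w (-1.02, adjusted p = 0.0347), and Dbp was higher at 4 w (+0.62, adjusted p = 0.00266). The difference of Nr1d2 between the courses rests on the single B6 2 w sample, without which its adjusted p was 0.0644, and so did its course in B6 (adjusted p = 0.413 without it).

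Arntl and Dbp, which peak out of phase in most tissues, were both highest at DBA/2 0 w. Across the 10 DBA/2 samples they correlated at r = 0.46, and across the 8 B6 samples at r = 0.50. Nr1d1 and Nr1d2 correlated at r = -0.47 in DBA/2 and 0.11 in B6. Dbp correlated with Nr1d2 at r = -0.85 in DBA/2 and 0.49 in B6, and with Tef at r = -0.29 and 0.71. Nr1d1 and Per1 correlated at r = -0.16 in DBA/2 and 0.80 in B6, the latter set mainly by the 8 w samples. These values are descriptions over samples that share slides, scaling and weeks. At B6 8 w the 9 tested clock genes were all below 0 w, with a median difference of -0.56 against -0.04 over all tested probes, and 3 of them (Per1, Nr1d1 and Dbp) passed as lower, where 10.2% of probes did. At DBA/2 9 w the median was 0.14 against -0.03, with 2 genes higher (13.4% of probes) and 1 lower (14.3%). The parts of the hour of collection, of array brightness and of hepatocyte RNA in these differences were not tested.

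Some other genes of the clock's network moved further than the loop itself. Of 19 such genes on the array 11 were tested, and 5 changed over the weeks in DBA/2, 5 in B6 and 4 differently between the strains, against 34.4%, 35.2% and 33.4% of all tested probes. As a class these counts lie near the shares of all probes, and the genes are given one by one. Nfil3, the repressor that competes with DBP and TEF for D-boxes and is also induced by cytokines, rose most. Its level in DBA/2 was -2.54 and -2.69 at 0 w, -2.21 and -2.08 at 2 w, -1.20 and -1.32 at 4 w, -0.25 and -0.37 at 8 w and -0.64 and -0.41 at 9 w. In B6 Nfil3 was -2.83 and -2.68 at 0 w, -2.63 at 2 w, -2.29 and -2.23 at 4 w, -1.32 and -1.30 at 8 w and -1.61 at 9 w. Every DBA/2 sample from 2 w on was above both 0 w samples, which held for 8.09% of all tested probes. Every DBA/2 week from 2 w on was also above the B6 samples of the same week, a share not counted over all probes. The rise at 8 w was +2.30 in DBA/2 (SE 0.11, adjusted p = 6.82e-07) and +1.45 in B6 (SE 0.11, adjusted p = 1.96e-05), with a difference between the strains of +0.86 (adjusted p = 0.00441).

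Nampt, the NAD-producing enzyme whose gene is an E-box target and which is also induced by inflammatory signals, rose along with Nfil3. In DBA/2 mice the difference was +1.80 at 8 w (adjusted p = 6.93e-06), and in B6 mice it was +0.59 at 8 w (adjusted p = 0.0066). Bhlhe40, a repressor that binds E-boxes, moved in opposite directions at 4 w, with a difference from 0 w of +1.50 in DBA/2 (adjusted p = 0.000642) and of -0.77 in B6 (adjusted p = 0.0203). The changes of the strains differed by +2.27 (adjusted p = 0.000503). Csnk1e, a kinase that marks PER proteins for degradation, rose by 0.55 at DBA/2 4 w (adjusted p = 0.00273) and fell by 0.52 at B6 2 w (log2 difference -0.52, adjusted p = 0.0102, from 1 sample). Timeless, which also serves DNA replication, fell by 0.99 at DBA/2 8 w (adjusted p = 0.000242), and at B6 4 w it fell by 0.60 (adjusted p = 0.00805). Cry2, the second cryptochrome, did not pass over the weeks in DBA/2 (adjusted p = 0.0693).

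**Figure D3:**
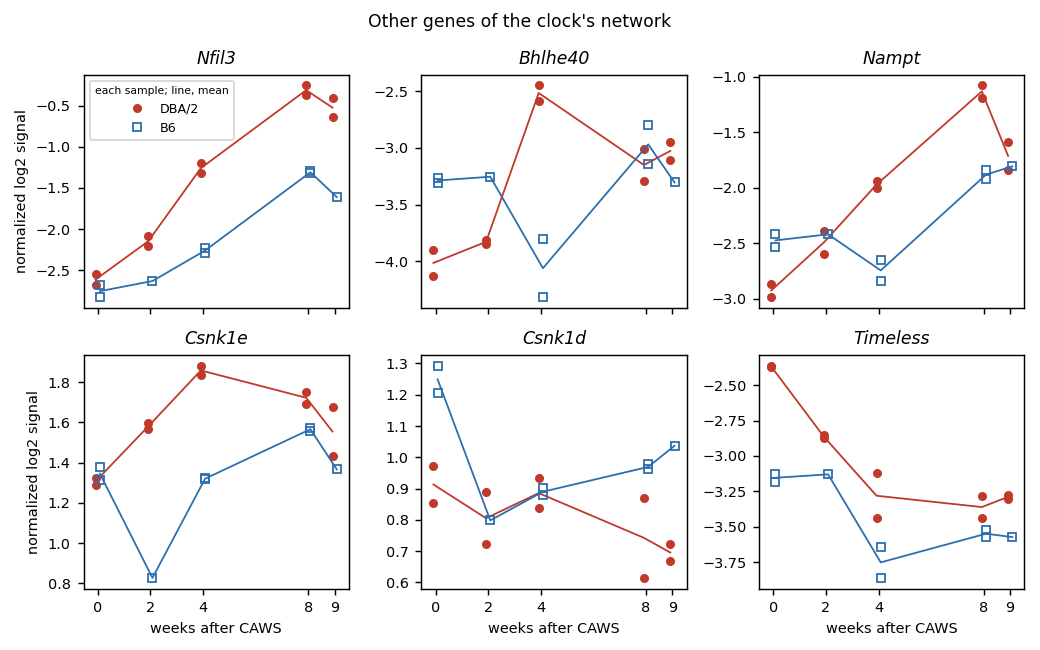
Normalized log2 signal (y axis) of 6 further genes of the clock's network against weeks after CAWS (x axis), with filled circles for DBA/2 samples, open squares for B6 samples and lines through the group means. Nfil3 and Nampt climb to 8 w in DBA/2, Bhlhe40 parts the strains at 4 w, and Timeless falls in DBA/2 from 2 w on.

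Markers of other cells and of acute cues moved over the same weeks, and their part in the clock gene results was not tested. Their counts of calls over the weeks stand beside 34.4% of all tested probes in DBA/2 and 35.2% in B6. The summed log2 level of 6 neutrophil markers was 6.70 to 6.72 at DBA/2 0 w, 9.42 to 9.58 at 8 w and 8.02 to 8.31 at 9 w, and in B6 it was 5.79 at 0 w and 8.72 to 8.73 at 8 w. All 6 were called over the weeks in each strain. B cell markers went from 4.72 to 4.82 at DBA/2 0 w to 3.69 to 3.80 at 9 w, and T cell markers from 3.19 to 3.21 to 2.37 to 2.60. Within DBA/2, lymphocyte markers were thus highest where Arntl and Dbp were, at 0 w. Over the weeks, 4 of 5 B cell markers were called in each strain, and 4 of 7 T cell markers in DBA/2 and 3 of 7 in B6. Hepatocyte markers were called in 9 of 9 in B6 and 2 of 9 in DBA/2. All 6 monocyte, 5 NK cell and 4 platelet markers were called in each strain, and of the 4 erythroid markers 3 were called in DBA/2 and 4 in B6.

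Heat shock and other temperature-responsive genes, a further cue to leukocyte clocks, were called in 7 of 7 over the weeks in each strain. The list was drawn up with Cirbp and Rbm3 beside heat shock genes, and its summed level is no measure of temperature. Their summed log2 level was 4.20 to 4.24 at DBA/2 0 w and 4.77 to 4.95 at DBA/2 9 w, where Per1 rose, and 4.25 to 4.31 at B6 8 w and 4.99 at B6 9 w, the lowest and the highest Per1 weeks of that strain. Of the 7 genes, 5 were called higher and 0 lower than 0 w at DBA/2 9 w (13.4% and 14.3% of all probes). At B6 8 w 1 was called higher and 4 lower (11% and 10.2%). The list did not move as one in DBA/2 either. There 5 were called higher and 2 lower at 2 w (7.91% and 7.82%), and 4 higher and 2 lower at 4 w (7.58% and 7.22%). The heat shock gene Hspa1a rose by 3.85 on the log2 scale at DBA/2 9 w, and Hsph1 rose by 1.11 there and fell by 1.14 at B6 8 w. Glucocorticoid-inducible genes were called over the weeks in 5 of 8 in DBA/2 and 6 of 8 in B6 (all probes, 34.4% and 35.2%). Their summed level was highest at DBA/2 2 w, at 3.94 to 4.05 against 3.18 to 3.23 at 0 w. At that week Per1 differed from 0 w by +0.38 and was not called (adjusted p = 0.0999). This difference of Per1 stayed uncalled under 32 of 35 alternative settings, and passed with the slide as a block (adjusted p = 0.0268). Within the slide of replicate 1 that difference was +0.30, and within that of replicate 2 it was +0.47. At B6 8 w, 3 of the 8 genes were called higher than at 0 w and 3 lower (median difference -0.05), among the latter Fkbp5, a co-chaperone of the glucocorticoid receptor, which fell by 1.37. Immediate early genes were called in 6 of 7 in DBA/2 and 5 of 7 in B6.

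**Figure D4:**
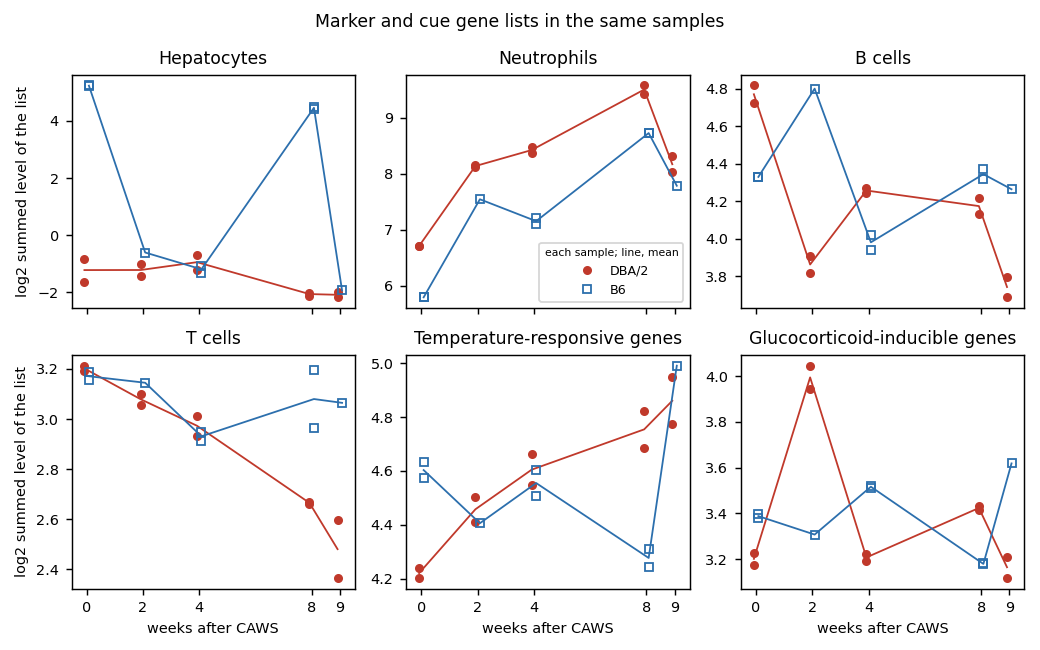
Log2 of the summed normalized level of 6 gene lists (y axis) in each sample against weeks after CAWS (x axis), with filled circles for DBA/2, open squares for B6 and lines through the group means. Hepatocyte markers stand apart at B6 0 w and 8 w, neutrophil markers rise to 8 w in both strains, and temperature-responsive genes are lowest at DBA/2 0 w and B6 8 w.

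Some clock genes also moved with the overall brightness of the array, measured as its 75th percentile. That percentile was 244 signal units at B6 2 w and 560 at B6 8 w replicate 1. Over the 18 samples the normalized level of Per1 correlated with its log2 at r = -0.69, that of Nr1d1 at -0.60 and that of Per2 at -0.55. Arntl (r = -0.09), Dbp (0.14) and Clock (0.21) lay near the median of 0.03 over all tested probes, for which the lower and upper 5% were at -0.71 and 0.61. The brightest samples, those of B6 8 w, held the lowest Nr1d1 levels and the lowest Per1 levels of that strain. The percentile was 267 to 273 at B6 0 w and 537 to 560 at B6 8 w. Before scaling, mean signals at B6 8 w and B6 0 w were 54.3 and 55.9 units for Per1, 129 and 116 for Nr1d1, and 313 and 227 for Dbp. The falls of these genes at B6 8 w are thus relative to that percentile, while their unscaled signals were similar or higher. The part of brightness in those falls was not tested. At B6 2 w, the dimmest sample, Per1 was also low, at -2.92.

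**Figure D5:**
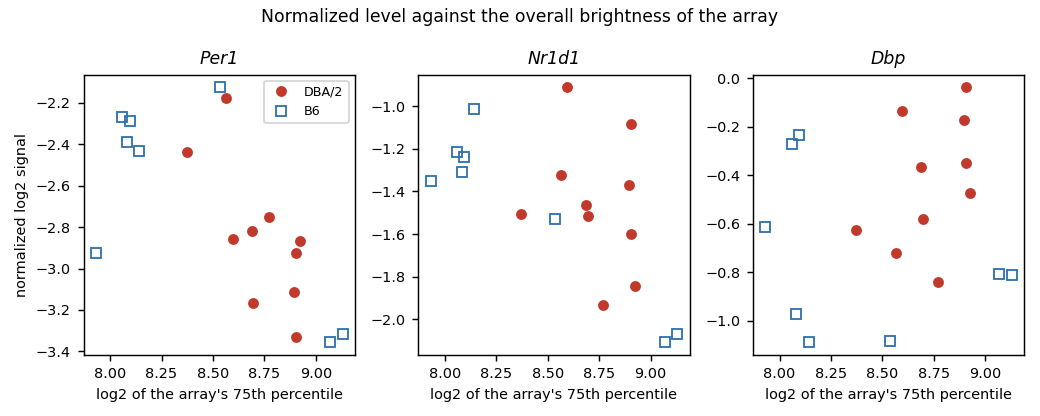
Normalized log2 signal of Per1, Nr1d1 and Dbp (y axes) against the log2 of each array's 75th percentile (x axes), with filled circles for DBA/2 and open squares for B6 samples. The B6 8 w samples, at the right, hold the lowest Nr1d1 values and the lowest Per1 values of that strain, while Dbp shows no such slope (r = 0.14).

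The genes whose pattern was most like that of Per1 over the 10 DBA/2 samples, among 12847 probes detected in all of them, were an unannotated transcript (NAP028877-1, r = 0.97), Fzr1 (0.96), Gna12 (0.95), Ryr1 (0.95) and Ahsa1 (0.95). The most opposite were Fam216a (r = -0.95), Nol12 (-0.95) and Gtf2h1 (-0.95). Over the 8 B6 samples Ahsa1, which encodes a co-chaperone of HSP90, kept its likeness to Per1 (r = 0.91), while Gna12 stood at r = -0.19 and NAP028877-1 at -0.54. These values were used for the ranking and are a description.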

How the data were processed

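Total RNA of blood leukocytes was labelled with Cy3 and hybridised to single-colour whole-genome arrays, 19 arrays of 18 samples on 6 slides. The deposited intensity values were produced by the authors with Agilent Feature Extraction 9.5.3.1, which subtracts background and removes trends within an array but does not normalize between arrays, and probe positions are those of build mm8 in the file headers. The processed intensity was converted to log2 and the 75th percentile of each array, over 11536 probes well above background on all arrays, was subtracted. Spots marked as outliers were left out, spots of a probe were averaged, and the 2 arrays of B6 0 w replicate 2 were averaged. A probe was tested if 2 or more of the 18 samples were well above background (22939 of 41174 probes), with limma 3.58.1 in R 4.3.3, in a single fit of all 10 groups with 8 residual degrees of freedom. Differences are contrasts between group means, the test over weeks is an F test over 4 contrasts, and p-values were adjusted by Benjamini-Hochberg over all tested probes, with a threshold of 0.05. The script was tested on simulated data. The number of arrays per group limits the precision.

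A bound ("at least") sets the bright mean against the lowest signal well above background in the dim group. For each gene the brightest probe on average was used. All 10 clock genes are named, and for the one with the largest range in DBA/2 among those called and well above background on all DBA/2 arrays, the 5 most and 3 least correlated genes. Tef, whose range was larger, was not well above background on all of them. The genes and lists (other clock genes, glucocorticoid, temperature and immediate early genes, and markers of hepatocytes, neutrophils, monocytes, T, B and NK cells, erythroid cells and platelets) were chosen with earlier results of these data known. Alternatives covered background correction, scaling, filters, floor, blocks, probes, the deposited value table, samples in the fit and each replicate left out. Promoter sequences came from RefSeq (GRCm38.p6).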

Additional observations from a re-analysis of the deposited data

Results flagged for a closer look

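The course of Per1 over the weeks differed between DBA/2 and B6 mice (limma F test of the strain by week term, adjusted p = 0.00508). In DBA/2 the group means were -3.22 at 0 w and -2.31 at 9 w, on different slides, while in B6 they were -2.28 at 0 w and -3.34 at 8 w. The B6 samples of both weeks held hepatocyte RNA, those of 0 w more of it, and those of 8 w were the brightest of all. The course of Nr1d2 also differed (adjusted p = 0.00469), with a mean of -2.79 at DBA/2 9 w against -3.58 in the B6 9 w sample and -3.68 at DBA/2 2 w against -2.48 in the B6 2 w sample. Both B6 values of Nr1d2 come from 1 sample each.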

How the results depend on the processing

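Of 4835 values of single genes under alternative settings, 4602 kept their direction and their side of the threshold, 172 lost a call, 61 gained one and 0 changed direction while called. The 9 tested genes gave 5 calls over the weeks in DBA/2, 4 in B6 and 2 for strain by week, with 7, 7 and 6 calls at single weeks in DBA/2, in B6 and between strains. With normexp background correction these became 0, 0, 0, 1, 0 and 0 in limma (1, 3, 1, 7, 6 and 4 at an unadjusted p under 0.05). Under normexp 9.53% of all probes were called over the weeks in DBA/2 and 5.16% in B6, and the median of all probes moved by +0.81 at DBA/2 9 w and -0.59 at B6 8 w. The rise of Per1 at DBA/2 9 w stayed called there (+1.08, adjusted p = 0.0258), which is +0.31 relative to the median of all probes. With no filter on dim probes there were 2 calls over the weeks in DBA/2, 2 in B6, 3 at single DBA/2 weeks, 4 at single B6 weeks and 3 between strains. Of all probes 10.5% were then called over the weeks in DBA/2 and 11% in B6. Calls over the weeks in DBA/2 were 3 with quantile normalization (31.8% of all probes) and 2 with each strain fitted alone. The slide as a random block (correlation 0.395) gave 4 strain by week calls and 14 at single DBA/2 weeks. It also raised the calls among all probes, to 44.3% for strain by week and 45.6% over the weeks in DBA/2. The DBA/2 9 w arrays shared no slide with DBA/2 0 w. Week and slide thus cannot be told apart in the 9 w calls of Per1, Nr1d2 and Dbp. Quantile scaling moved the median of all probes at DBA/2 8 w by +0.15.

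Of the alternatives chosen after seeing the data, leaving out B6 0 w and 8 w gave 3 calls over the weeks in DBA/2, and B6 2 w, 4 w and 9 w among each other gave 2. Leaving out each replicate in turn gave 3 to 5 calls over the weeks in DBA/2, 2 to 4 in B6, 1 to 2 for strain by week, 4 to 9 at single DBA/2 weeks, 4 to 7 at single B6 weeks and 4 to 6 between strains. Calls over the weeks in DBA/2 fell to 3 without either 0 w replicate of B6, either 2 w replicate of DBA/2, DBA/2 0 w replicate 1 or DBA/2 9 w replicate 2, in each of which Arntl and Tef lost their calls. Calls at single weeks fell to 4 in DBA/2 without DBA/2 0 w replicate 1 and to 4 in B6 without either B6 0 w replicate, and calls over the B6 weeks to 2 without B6 4 w replicate 2. With the replicate number as a block the counts were 6, 4, 3, 10, 7 and 7. Of all probes 43% were then called over the weeks in DBA/2, 42.8% in B6 and 41.4% for strain by week. Same-numbered deviations correlated at -0.0109 to 0.455 between groups (median 0.0795, 12 of 28 above 0.1), so that the numbers were not taken to pair the samples throughout, although in DBA/2 the number is also the slide at 0 w, 2 w, 4 w and 8 w. Signals of under 50 units limit what could be called for Clock, Per2, Per3 and Tef.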
